A study of Mus musculus with 2 samples.

Results

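The 32 genes described here make and run the peroxisome, and above all its oxidation of very-long-chain and branched fatty acids. They were taken as a fixed list of symbols, and all 32 were found among the 55450 genes of the deposited gene tables. The list holds 13 Pex genes, 5 genes for membrane proteins and transporters, 9 enzymes of beta-oxidation or the steps around it, 2 enzymes of alpha-oxidation and 3 enzymes of ether lipid synthesis.

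The study profiled total RNA, depleted of ribosomal RNA and made into strand-directional libraries, from whole adrenal glands of female mice of the hybrid strain B6CASTF1/J, a cross of C57BL/6J with CAST/EiJ, at 36 days of age. The 2 libraries carry biological replicate numbers 1 and 2, and 300 ng of RNA went into each, together with ERCC spike-ins. There was no treatment, mutant or second tissue, so no comparison of conditions could be made and no p-value is given. The sample fields name different animals (female 03 and female 04), while the library descriptions both name female 03 and both samples share a donor identifier. The SDs below therefore measure the spread between these libraries, which may be technical. Replicate 1 held 35684781 expected counts (estimated reads, with fractions where a read was divided between genes) in all, and replicate 2 held 38701795.

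Peroxisomes have no genome. Their matrix proteins are made in the cytosol and carried in, already folded, by the receptors PEX5 and PEX7, and their membrane proteins are placed by PEX3, PEX16 and PEX19. Inside, an acyl-CoA oxidase, a multifunctional enzyme and a thiolase shorten fatty acids too long for mitochondria, and the first steps of plasmalogen synthesis take place there too. In steroid-making glands the organelle is known as well for the sterol carrier protein encoded by Scp2.

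As a check of the tissue, all 6 adrenal cortex markers (Star and Cyp11a1 among them) were detected, with a summed level of 16266 TPM (a level scaled for transcript length and for the total of the library) in replicate 1 and 16733 in replicate 2. Markers of chromaffin cells (6 of 6 detected) summed to 1486 and 1116 TPM, with none higher in replicate 2. Adipocyte markers (5 of 6) summed to 1532 and 1578 TPM and brown fat markers (4 of 4) to 797 and 741 TPM, and RNA of fat was thus in both libraries. The libraries stood apart in traces of other tissues: 5 skeletal muscle markers summed to 246 and 2.02 TPM and 6 liver markers to 34.7 and 2.12 TPM. In bulk tissue, fewer cells of a type and less RNA per cell cannot be told apart, and no level below can be given to 1 cell type.

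Of the sequences below, the first pair shows where the thiolase genes Acaa1a and Acaa1b, which share most of their sequence, differ most. Both main transcripts have 1272 coding bases (GENCODE M21, build mm10), which differ at 44 positions, an identity of 96.5%, and share a run of 327 identical bases. The lines give coding bases 460 to 549, counted from the start codon, the 90-base window with the most differences. Capitals mark its 13 differing positions. The window is spliced in both genes, and its ends lie at chr9:119346483-119347733 on the plus strand and chr9:119150901-119151901 on the minus strand.
Acaa1a-201: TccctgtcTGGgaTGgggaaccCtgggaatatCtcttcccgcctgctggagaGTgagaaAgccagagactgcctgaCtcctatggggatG
Acaa1b-201: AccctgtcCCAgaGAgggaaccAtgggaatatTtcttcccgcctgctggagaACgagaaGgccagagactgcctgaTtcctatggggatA

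The next sequence is exon 8 of Pex5-201 (chr6:124404133-124404243, minus strand, 111 bases, all coding). It sets the long form of the receptor PEX5 apart from the short form, and the long form is the one that works with PEX7.
Pex5-201 exon 8: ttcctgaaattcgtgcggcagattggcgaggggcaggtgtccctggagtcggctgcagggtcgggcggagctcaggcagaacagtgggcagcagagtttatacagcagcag

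The last is the coding part of the first exon of Slc27a2-203 (chr2:126556149-126556218, plus strand, 70 bases). It is absent from the full-length transcript Slc27a2-201, so it tells apart the 2 transcripts of the gene whose level differed most between the libraries.
Slc27a2-203 exon 1, coding part: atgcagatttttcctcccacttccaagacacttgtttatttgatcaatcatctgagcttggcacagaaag

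Nearly the whole list was expressed. At a threshold of 1 TPM in both libraries, 31 of 32 genes were detected, beside 53.1% of 21938 nuclear protein-coding genes. The median level was 16.7 TPM (mean of both libraries), against 10.3 TPM for the detected protein-coding genes, and 21 of the 32 lay above the latter value. Their TPM summed to 731 in replicate 1 and 799 in replicate 2. Acox2 alone fell below the threshold. The values span more than 2 orders of magnitude, and the top of the order holds enzymes and membrane assembly factors rather than transporters.

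**Figure D1:**
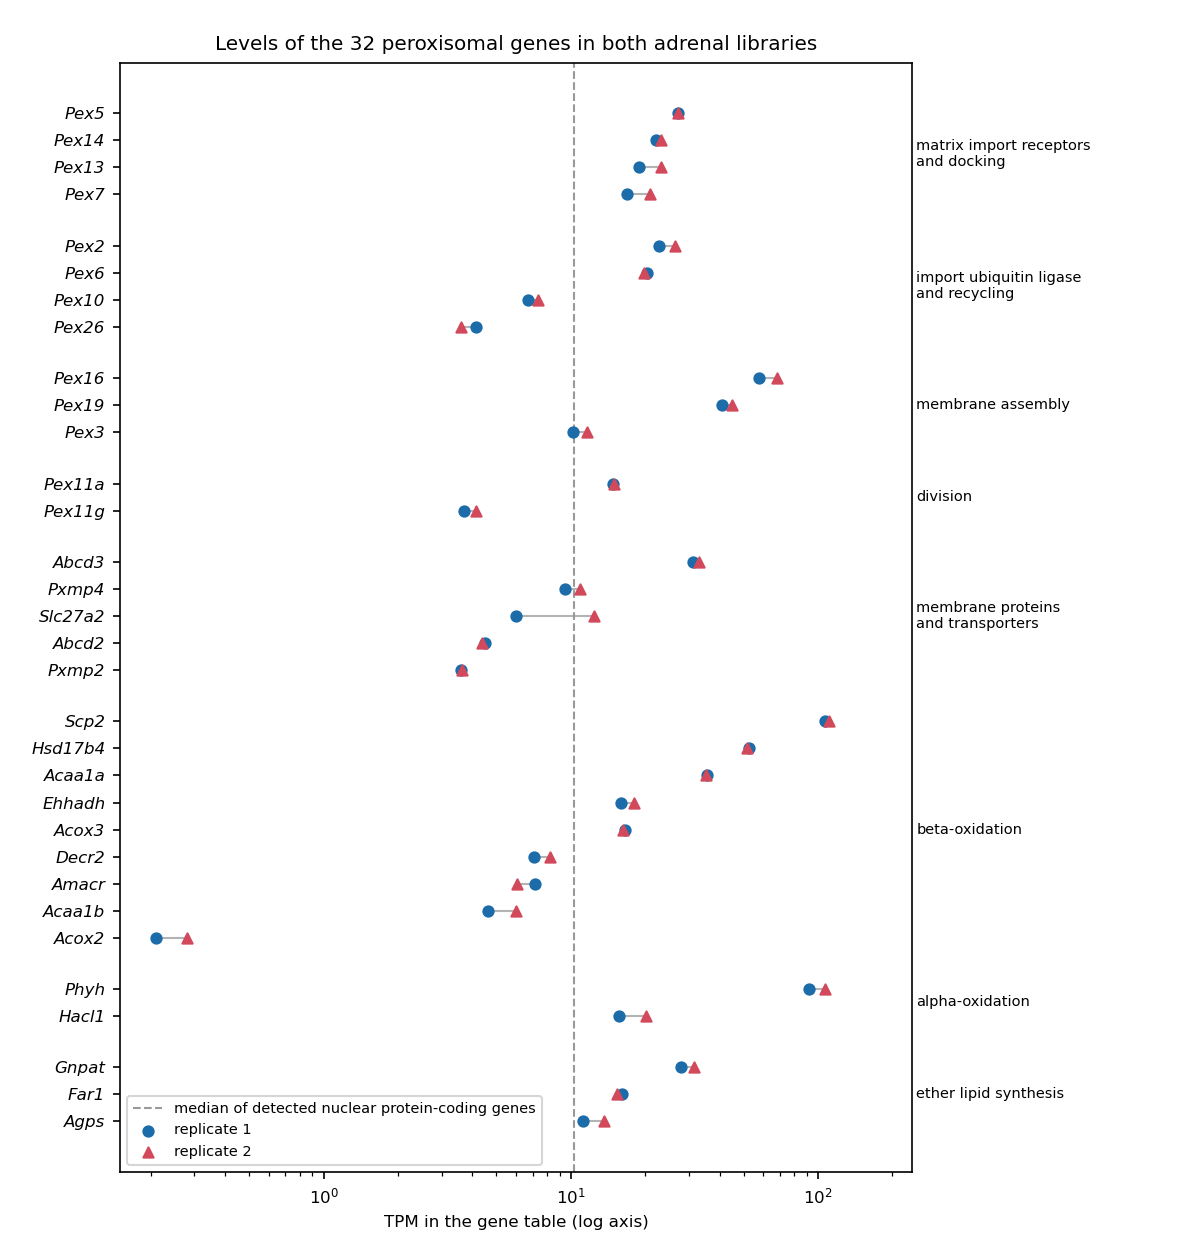
TPM of each of the 32 genes in replicate 1 (circles) and replicate 2 (triangles), on a log axis and grouped by role. The dashed line is the median of detected nuclear protein-coding genes, 10.3 TPM. Scp2 and Phyh stand highest, Acox2 lies far below the rest, and Slc27a2 has the widest gap between its 2 points.

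Among the 4 genes for import receptors and docking, levels were close to each other. Pex5, the receptor for proteins with the C-terminal targeting signal, was at 27.18 TPM in both libraries (2739 and 2815 expected counts). Pex14, the docking protein that receives the loaded receptor, was at 22.21 and 23.20 TPM. Its partner Pex13 was at 18.88 and 23.26 TPM, and the order of its libraries turned with the scaling: its log2 ratio of replicate 2 to replicate 1 was 0.30 by TPM, -0.11 by TMM-scaled counts and -0.24 in the read-derived table. Pex7, the receptor for the N-terminal signal carried by thiolase and by the ether lipid enzyme AGPS, was at 16.88 and 20.90 TPM. The role's median was 21.9 TPM, with means from 18.9 to 27.2 TPM.

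The genes that recycle the receptor were less even. PEX2 and PEX10 are subunits of the membrane ubiquitin ligase that marks PEX5 for removal. Pex2 was at 22.70 and 26.46 TPM, and Pex10 at 6.71 and 7.35 TPM. PEX6 is an ATPase that pulls the marked receptor out, and PEX26 anchors it to the membrane. Pex6 was at 20.34 and 19.72 TPM, while Pex26 was at 4.12 and 3.61 TPM. The libraries of Pex2 and Pex6 did not overlap with those of Pex10 and Pex26.

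The 3 membrane assembly genes had the highest median of the roles with 3 or more genes, 42.9 TPM. Pex16, which brings PEX3 to new membrane, was at 57.76 and 68.17 TPM. Pex19, the chaperone of membrane proteins, was at 41.02 and 44.72 TPM. Pex3, the docking site for PEX19, was at 10.18 and 11.65 TPM, below both partners in both libraries. Of the division genes, Pex11a, which elongates the membrane, was at 14.76 and 14.95 TPM, and Pex11g at 3.68 and 4.13 TPM. Pex11a exceeded Pex11g 4.01-fold in replicate 1 and 3.62-fold in replicate 2.

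Among membrane proteins, Abcd3 led. ABCD3 is the abundant membrane transporter for branched and long acyl-CoAs and bile acid precursors, and ABCD2 takes up very-long-chain and polyunsaturated acyl-CoAs. Abcd3 was at 31.26 and 32.98 TPM and Abcd2 at 4.51 and 4.38 TPM, a ratio of 6.93 and 7.53. The channel-forming protein gene Pxmp2 was at 3.61 and 3.64 TPM. Pxmp4, a small membrane protein, was at 9.45 and 10.85 TPM. Slc27a2, which encodes an acyl-CoA synthetase for very-long-chain fatty acids, was at 6.00 and 12.39 TPM and is taken up below.

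The beta-oxidation genes covered the whole range of the list. Scp2 (chr4:108043839-108144998, minus strand), the most abundant of all 32, was at 106.75 and 110.44 TPM, the 96.0th percentile of detected protein-coding genes. Its gene encodes both a thiolase for branched substrates and the short sterol carrier protein. Hsd17b4, the multifunctional enzyme of the branched-chain and very-long-chain route, was at 52.58 and 51.82 TPM. Ehhadh, the multifunctional enzyme better known for straight-chain and dicarboxylic acids, was at 15.94 and 18.05 TPM, so that Hsd17b4 exceeded it 3.30-fold and 2.87-fold.

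The branched-chain oxidases differed most. Acox3 was at 16.53 and 16.25 TPM (1605 and 1846 expected counts). Acox2 (chr14:8225511-8259353, minus strand), the oxidase of bile acid precursors, was at 0.21 and 0.28 TPM and had 10 and 7 expected counts. A count of 0 would allow up to 3 counts, so both libraries lay not far above that limit. The deposited TPM interval of replicate 1, 0.26 to 0.93, does not hold its own TPM. The transcript with the highest mean TPM, Acox2-203, was annotated as a retained intron, but had only 3.19 and 4.00 counts by alignment. In the read-derived table the protein-coding Acox2-206 led in replicate 2 (58.7% against 26.6%). Amacr, the racemase that readies 2-methyl acyl-CoAs for oxidation, was at 7.14 and 6.08 TPM. Decr2, the reductase for polyunsaturated chains, was at 7.08 and 8.26 TPM.

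The thiolase pair was led by Acaa1a. Acaa1a (chr9:119339676-119350299, plus strand) was at 35.67 and 35.22 TPM. Acaa1b (chr9:119148023-119157093, minus strand) was at 4.63 and 6.02 TPM, and the libraries of the pair did not overlap. Acaa1a thus made up 88.5% of the pair's TPM in replicate 1 and 85.4% in replicate 2, a mean of 87.0% ± 2.20 (SD, n = 2). The read-derived table put it at 90.2% by TPM. By counts it was 87.8% in the gene table and 87.5% in the read-derived table. Division of shared reads is visible in the counts. Neither gene had whole expected counts (2265.36 and 2294.72 for Acaa1a, 265.64 and 370.28 for Acaa1b), but their sums were whole, 2531 and 2665. Whole counts in both libraries, within 0.005, were found for 27 of the 32 genes, beside 84.1% of detected nuclear protein-coding genes. Besides the thiolase pair the exceptions were Scp2, Hacl1 and Gnpat. The values of Acaa1b, the lower of the pair, are thus uncertain.

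In alpha-oxidation, which removes 1 carbon from phytanic acid before beta-oxidation can start, both genes were well detected. Phyh (chr2:4919019-4938730, plus strand), the phytanoyl-CoA hydroxylase, was at 91.98 and 106.79 TPM, next after Scp2. Hacl1, the lyase of the following step, was at 15.70 and 20.18 TPM. Phyh exceeded Hacl1 5.86-fold and 5.29-fold. In ether lipid synthesis, Gnpat, which starts the pathway, was at 27.88 and 31.49 TPM, Agps, which makes the ether bond, at 11.15 and 13.62 TPM, and Far1, which supplies the fatty alcohol, at 16.09 and 15.35 TPM.

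How firmly these levels can be ordered follows from the libraries. When all 32 genes were ranked by mean TPM, 14 of the 31 neighbouring pairs had library values that did not overlap, and 17 did overlap. The steps from Phyh down to Abcd3 were all of the first kind, through Pex16, Hsd17b4, Pex19 and Acaa1a. The read-derived table kept the steps from Phyh to Pex19 but not the next. There Acaa1a, at 85.5 and 91.8 TPM, lay above Pex19, at 58.2 and 64.8 TPM, and overlapped Hsd17b4. The order thus depends in part on the quantification. In the gene table, the further neighbours were as follows. Scp2 and Phyh overlapped, and so did each neighbouring pair from Pex2 down to Acox3. At the low end, Abcd2 lay above Pex11g in both libraries, whereas Pex11g, Pex26 and Pxmp2 overlapped as neighbours.

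The libraries were then compared gene by gene as log2((TPM in replicate 2 + 0.1)/(TPM in replicate 1 + 0.1)), over genes with 200 or more expected counts summed over both libraries. This filter kept 31 of the 32. Only Slc27a2 was 1.5-fold or more apart, 1 of 31 genes, beside 3.57% of the 12275 genes that passed the filter. It was higher in replicate 2, as were 2.08% of the filtered genes at that fold. With a limit of 25% in place of 1.5-fold, 3 of 31 were apart (Slc27a2, Acaa1b and Hacl1), beside 14% of all. The SD of the 31 ratios was 0.22, against 0.37 over all filtered genes. The latter were not matched to the list for counts and include the muscle markers, so the SDs are not a like comparison. Apart from Slc27a2 the list's ratios ran from -0.23 to 0.37.

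**Figure D2:**
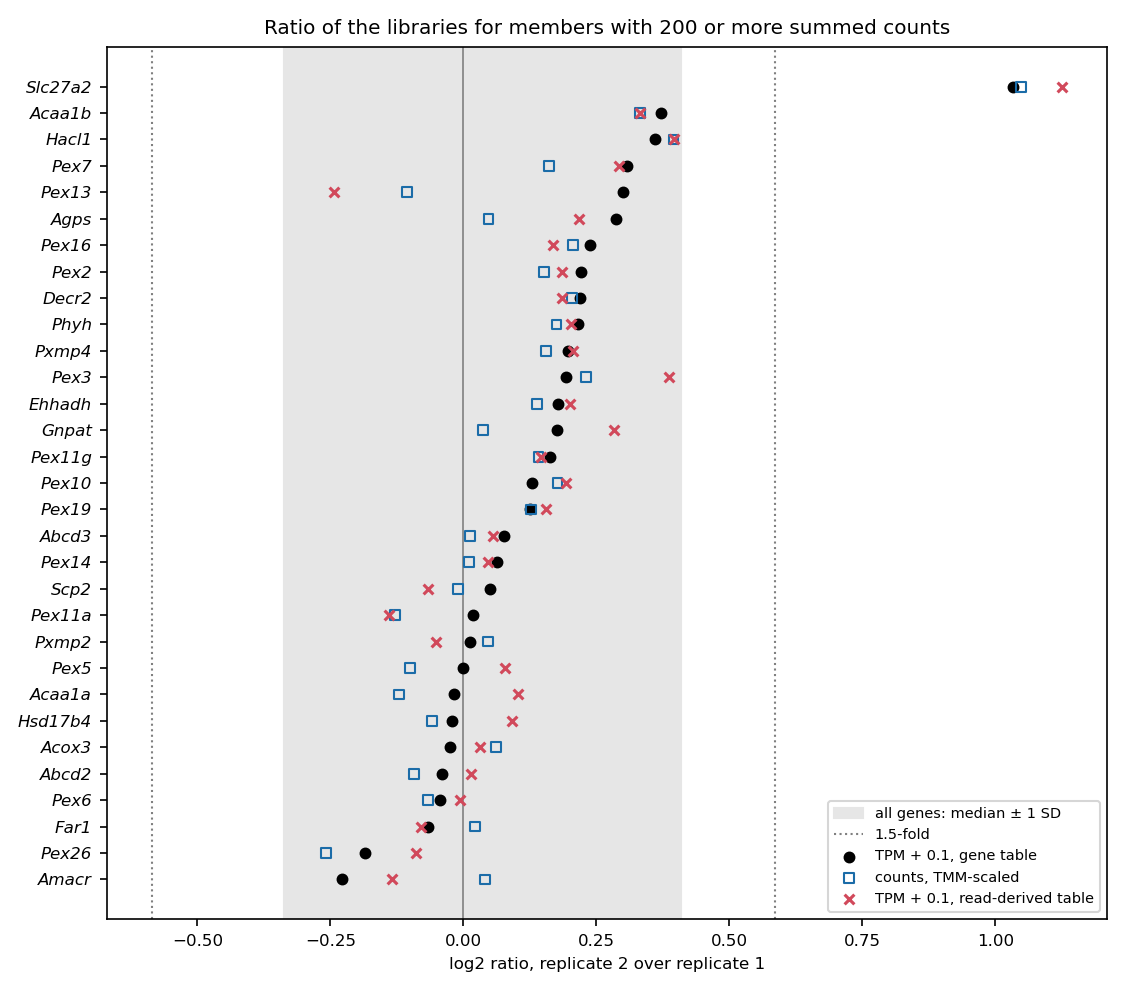
Log2 ratio of replicate 2 to replicate 1 for the 31 genes with 200 or more summed counts, from TPM of the gene table (black), TMM-scaled counts (open squares) and the read-derived table (crosses). The grey band is the median ± 1 SD of all filtered genes and the dotted lines are 1.5-fold. Slc27a2 lies beyond 1.5-fold by all 3 measures, and Pex13 changes side between them.

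Slc27a2 (ENSMUSG00000027359.16, chr2:126552407-126588243, plus strand) rested on 416 expected counts in replicate 1 and 953 in replicate 2. Its TPM was 2.05-fold higher in replicate 2 on the TPM + 0.1 scale, a log2 ratio of 1.03. The deposited TPM intervals, 5.35 to 6.82 and 11.4 to 13.3, did not overlap. The ratio of its shares of all counts was 2.11, with an exact 95% interval of 1.88 to 2.38 that covers counting error only. Among filtered nuclear protein-coding genes 26 had a higher ratio, which puts Slc27a2 at the 99.8th percentile. Its log2 ratio was 1.05 by TMM and 1.12 in the read-derived table. With 1 library a side this is a difference between these libraries only.

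Both main transcripts of Slc27a2 were higher in replicate 2. Slc27a2-201 starts at position 126552407 and Slc27a2-203 at 126556128, and they have 8 identical exons. In the alignment-derived table Slc27a2-201 was at 2.42 and 5.33 TPM and Slc27a2-203 at 3.25 and 6.79 TPM. In the read-derived table they were at 5.33 and 10.4 TPM, and at 4.43 and 11.3 TPM. The share of Slc27a2-203 was 54.2% and 54.8% in the former and 43.0% and 50.1% in the latter, so the first-exon sequence printed above belongs to a transcript that took a large part of the gene's TPM in every case.

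Liver and kidney are known for high Slc27a2. The 6 liver markers summed to 34.7 TPM in replicate 1 and 2.12 TPM in replicate 2 (0 of 6 higher), with Alb at 22.70 and 1.34 TPM. The 5 kidney markers summed to 0.42 and 0.38 TPM, with 0 of 5 detected, and Umod, Slc34a1 and Slc22a6 had 0 counts in both libraries. Skeletal muscle markers were likewise lower in replicate 2 (0 of 5 higher), as were those of chromaffin cells (0 of 6 higher). The part of liver, kidney, muscle or chromaffin RNA in the Slc27a2 ratio was not tested. A gene on the other strand, Gm26697, overlaps the locus. Libraries were directional, but whether counting used strand is not given in the sources used here.

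Over the list as a whole, Slc27a2 included, more genes were higher in replicate 2 than lower. By TPM, 22 of 31 genes were higher in replicate 2, beside 58.3% of all filtered genes, and the median log2 ratio was 0.13 against 0.04. By TMM-scaled counts the medians were 0.05 for the list and 0.0001 for all genes. Of the 31, 18 were higher in replicate 2 under each of 5 scalings (TPM + 0.1, TPM + 1, TMM, size factors and the read-derived table). Pex6 and Pex26 were lower under each, and 11 changed sign with the scaling, Scp2, Hsd17b4, Acaa1a and Pex5 among them. The 5 scalings are not separate checks: the constant added to TPM cannot change a sign, and TMM and size factors rescale the same counts. The share over all filtered genes was not counted under the 5 scalings, so the 18 cannot be called particular to the list.

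Another view, which sets no limit on the fold, came from the deposited intervals of the TPM. For 7 of 31 genes the intervals of the libraries did not overlap, each with replicate 2 higher, beside 9.2% of all filtered genes. In the other direction there were 0 genes, beside 5.74%. The list and the filtered genes were not matched for counts, so these shares are not a like comparison. The 7 were Slc27a2, Acaa1b, Pex7, Pex16, Pex2, Phyh and Ehhadh, and all of them were higher under each of the 5 scalings. That result is in part built in. The genes were chosen by their TPM intervals, and the constant added to TPM cannot change the sign of a ratio. TMM and size factors rescale the same counts (log2 ratios of 0.16 and 0.17 for Pex7). The 5 scalings are thus not 5 separate checks. Besides Slc27a2 the folds of the 7 genes were small, from 1.13 for Ehhadh to 1.29 for Acaa1b. These intervals describe the estimate within a library, at a level the files do not state, and not the spread between animals.

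The same libraries had been quantified in a separate way straight from the reads. As deposited, 27 of the 32 genes were 1.5-fold or more apart between the quantifications (TPM + 1), beside 20.6% of all genes and 77.5% of detected nuclear protein-coding genes. The list's median fold, 1.69, was close to that of detected protein-coding genes, 1.65. Nuclear protein-coding genes held 31.2% of TPM in both gene tables and 59.2% in both read-derived tables. When both were rescaled to one total over those genes, 0 of 31 detected members were 1.5-fold apart, beside 5.19%. Levels in TPM were therefore compared within 1 table only.

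Transcript shares depended more on the table. The list had 180 annotated transcripts, from 1 (Ehhadh) to 13 (Hacl1) a gene. The leading transcript, the one with the highest mean TPM, was the same in both tables for 26 of 32 genes. It was protein-coding for 31 genes in the alignment-derived table and for 28 in the read-derived one. For 5 genes it took 90% or more in both tables and both libraries, as in Phyh (98.8% and 98.8% by alignment) and Hsd17b4 (98.9% and 99.0%). Within a table, the libraries shared the leading transcript for 30 of 32 genes by alignment and for 28 in the read-derived table. None of these counts was made over all genes, so they describe the list only.

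The 6 genes whose leading transcript differed were Pex5, Pex2, Scp2, Amacr, Hacl1 and Far1. In 3 of them the read-derived table put a much shorter transcript first. For Amacr it was Amacr-202, of 633 bases with 29 outside the exons of Amacr-201, and for Hacl1 it was Hacl1-204, of 762 bases with 260 outside those of Hacl1-202. For Far1 it was Far1-203, of 445 bases with 276 outside those of Far1-201. For these genes the choice of quantification decides which isoform leads by TPM, a level scaled for length. Counts need not follow: Amacr-201 had 375 and 464 by alignment and 357 and 434 in the read-derived table.

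**Figure D3:**
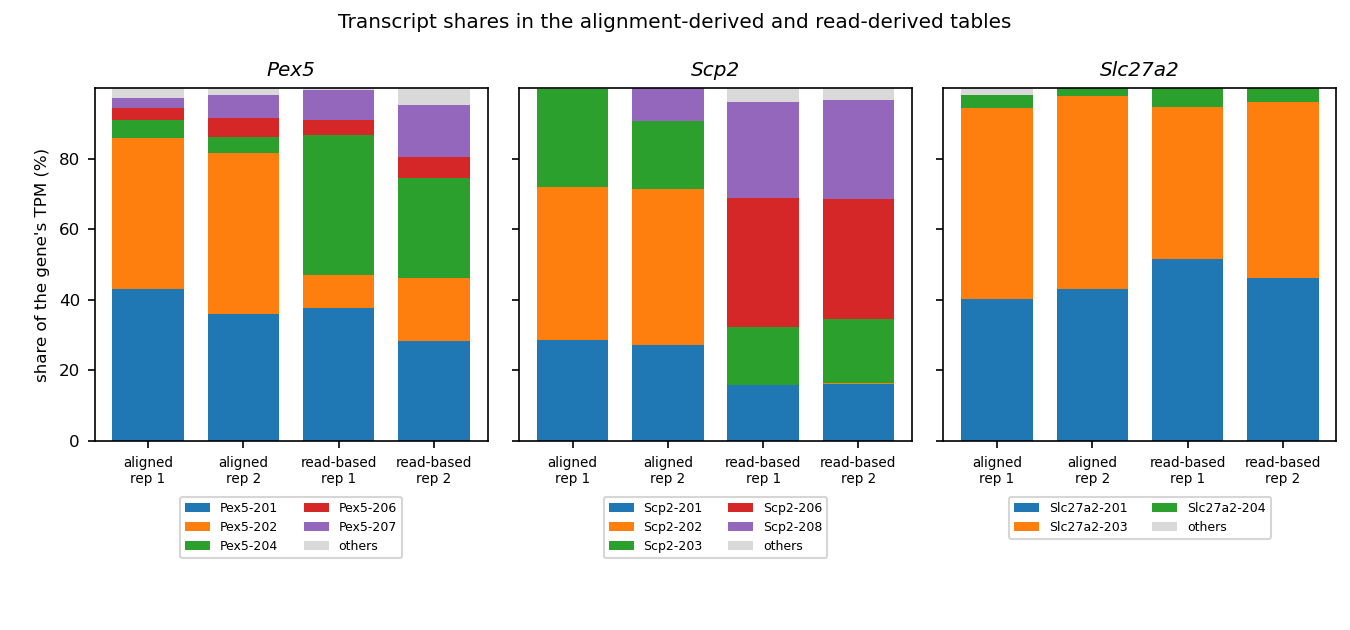
Share of the gene's TPM taken by each transcript of Pex5, Scp2 and Slc27a2, in the alignment-derived ("aligned") and read-derived ("read-based") tables of both libraries; transcripts under 5% everywhere are pooled as others. The tables differ in Scp2 and in the split between Pex5-202 and Pex5-204, which in the read-derived table also differs between the libraries.

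Scp2 showed the difference in TPM shares between the tables most. Scp2-201, with 1641 coding bases, is the long form, known to give the thiolase with the sterol carrier domain. Scp2-202, with 429 coding bases and an internal start, is the short form that gives the sterol carrier protein. The alignment-derived table gave Scp2-202 43.4% and 44.0% of the gene's TPM and Scp2-201 28.7% and 27.3%. The read-derived table gave Scp2-201 15.9% and 16.2% and listed Scp2-202 at 0.10% or less. Its largest share of TPM, 36.6% and 34.1%, went to Scp2-206, which starts with the long form and has no annotated coding bases. Scp2-208 (27.2% and 28.0%) and Scp2-203 (16.3% and 18.2%) have none either. These shares are of TPM, which is scaled for length. By counts Scp2-201 led in both tables, with 2811 and 2965 by alignment and 2834 and 2935 in the read-derived table. Scp2-202 had 1124 and 1265 counts by alignment, and Scp2-206 had 1353 and 1282 in the read-derived table. Of the 772 bases of Scp2-202 only 9 lie outside the exons of Scp2-201, and the shares of both protein forms are uncertain here.

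For Pex5 the tables gave different leading transcripts, Pex5-202 and Pex5-204, but a like answer on the exon printed above. Both of those, which lead by mean TPM, lack exon 8. In replicate 1 by alignment Pex5-201, which holds it, was narrowly first (43.1% against 42.8% for Pex5-202). Among coding transcripts, with Pex5-203 left out (under 1% of TPM in both tables and libraries), those with exon 8 (Pex5-201 and Pex5-205) took 47.3% and 41.9% of TPM by alignment, a mean of 44.6% ± 3.87 (SD, n = 2). In the read-derived table they took 43.5% and 41.6%, a mean of 42.6% ± 1.36 (SD, n = 2). Forms with and without the exon were thus both present in both libraries.

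Beyond the list, other peroxisomal genes were set beside it. Of 49 such genes 38 were detected, with a median of 14.3 TPM over all 49, and 0 of the 39 with enough counts were 1.5-fold apart between the libraries (median log2 ratio 0.06). The most abundant were Idh1, a source of NADPH, at 257 and 253 TPM, Ech1, an isomerase of unsaturated chains, at 162 and 175 TPM, catalase (Cat) at 133 and 140 TPM and Gstk1 at 102 and 105 TPM.

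**Figure D4:**
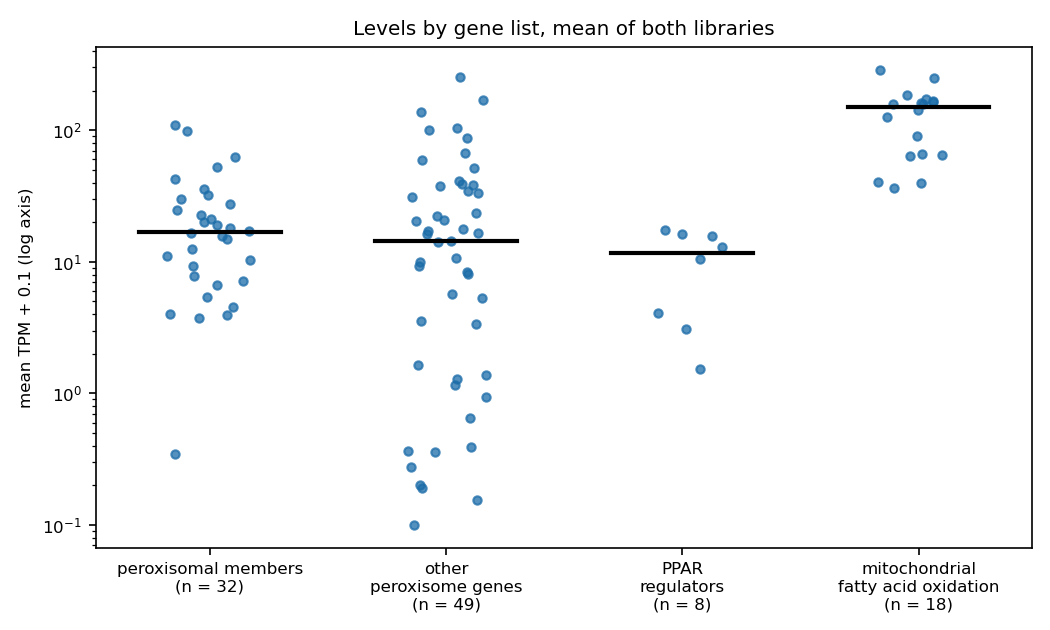
Mean TPM + 0.1 of both libraries for each gene, on a log axis, in the 32 listed genes, 49 other peroxisome genes, 8 PPAR regulators and 18 genes of mitochondrial fatty acid oxidation; bars are medians (16.7, 14.3, 11.7 and 149.6 TPM, each drawn with 0.1 added). The mitochondrial genes lie highest, the lowest of them at 36.1 TPM.

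The mitochondrial route to fatty acid oxidation stood higher. All 18 of its genes were detected, with a median of 149.6 TPM, and 0 of 18 were 1.5-fold apart. Hadhb and Acadm, enzymes of the mitochondrial beta-oxidation spiral, led with 274 and 302 TPM and with 269 and 231 TPM, followed by Acadl (178 and 192 TPM) and Etfa (174 and 172 TPM). Its lowest gene averaged 36.1 TPM, and only 5 of the 32 peroxisomal genes exceeded that: Scp2, Phyh, Pex16, Hsd17b4 and Pex19. Brown fat, whose markers were present in both libraries, is rich in mitochondria, and its part in these levels was not tested.

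The nuclear receptors of the PPAR family, with their RXR partners and coactivators, were all detected (8 of 8, median 11.7 TPM). The 4 highest were Rxrb at 17.9 and 16.9 TPM, Rxra at 16.9 and 15.6 TPM, Pparg at 15.7 and 15.3 TPM and Ppard at 13.5 and 12.2 TPM. None of the 7 with 200 or more counts was 1.5-fold apart between the libraries.

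Annotation limits some of these counts. Of the 32 genes, 11 overlap no other annotated gene, 7 overlap a gene on the same strand and 17 a gene on the other strand, some of them both. Scp2 shares ground with Podn on its own strand, Pex13 with Pus10 on the other, and Acaa1a with Myd88 and Slc22a14 on the other. Overlap was taken over whole gene spans, introns included, and was not counted over all genes. Pex13 had whole expected counts in both libraries (2131 and 2182), while Scp2 and Acaa1a did not. For overlapping genes, reads in a shared part may have been counted either way.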

How the data were processed

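Total RNA-seq of 2 adrenal libraries was used as deposited, on build mm10 with GENCODE M21 per the text deposited beside the files. The authors deposited, for each library on its own, a gene table and a transcript table derived from transcriptome alignments, with expected counts and TPM, and a transcript table made straight from the reads, with estimated counts and TPM. The aligner and quantifiers: not given in the sources used here. Each gene table further holds deposited bounds of a TPM interval, treated as a signal with no stated level. Read-derived TPM was summed per gene by the identifiers in its target names, which gave a symbol to each of the 32 genes.

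Detection was 1 TPM in both libraries. Ratios used TPM + 0.1 and genes with 200 or more summed expected counts, and a gene was called apart at 1.5-fold. The quantifications were compared on TPM + 1. Count scalings came from edgeR 4.0.16 (TMM) and DESeq2 1.42.0 (size factors) on expected counts rounded to whole numbers, in R 4.3.3; no count test was run, since there is 1 group. Exact intervals are Clopper-Pearson at 95% and cover counting error only, since reads without molecular identifiers are not independent molecules. Nuclear protein-coding genes leave out mitochondrial genes. Sequences were read from the GENCODE M21 transcripts. Scripts for ratios were tested on simulated data.

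The listed genes, the other gene lists and the markers were chosen with earlier results of these data known. By rule all 32 members are named and, of every other list, the 4 highest by mean TPM and any gene 1.5-fold apart may be named (for markers, few are); the kidney markers at 0 counts are named besides. Alternatives were pseudocount, scaling, filter, threshold, quantification and leaving out each library. Protein sequences were not used here.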

Additional observations from a re-analysis of the deposited data

How the results depend on the processing

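Results that kept their direction and side of the threshold were the number of detected genes (31, or 26 at 5 TPM), the 1 gene 1.5-fold apart between the libraries (also 1 with TPM + 1, TMM, size factors, the read-derived table and no filter), the median log2 ratio (0.05 to 0.15) and the number of shared leading transcripts (24 to 26). The median TPM of the list moved from 16.7 to 30.3 in the read-derived table and to 53.5 after rescaling over nuclear protein-coding genes, as its unit changes with the entries that share the total; leaving out each library gave 16.02 to 17.15. The count of genes apart between the libraries was 3 with a limit of 25%. Between the quantifications it was 27, but 5 at 2-fold, 25 to 27 when each library was left out, and 0 of the 31 detected genes after rescaling, an alternative chosen after seeing the data. The share of Acaa1a in its pair was 87.0% by TPM, against 90.2% in the read-derived table and 85.4% to 88.5% with each library left out. By counts the tables were close, at 87.8% and 87.5%. Why they differ by TPM was not tested. For single genes, the only called ratio, that of Slc27a2, kept its sign, while 11 of the 31 genes changed sign with the scaling. Of 128 alternative values for the ratio, 1 moved by more than the median absolute ratio of all genes (0.12) with TPM + 1, 7 with TMM, 7 with size factors and 4 in the read-derived table. The share of the leading transcript moved by more than its SD for 24 genes in the read-derived table. With 2 libraries of 1 group, no spread between animals can be estimated with precision, and Acox2, at 10 and 7 counts, is too shallow for a ratio. No paired analysis was possible because there is only 1 group.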
